A study of Mus musculus with 14 samples.

Results

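The transcript profile of the proximal epididymis in control mice after a sham operation was described from 4 of the 14 arrays of the study, those labelled control (Ctl) and sham. All 21929 measured genes were ranked by their mean log2 signal over these 4 arrays, with no comparison entering the ranking, and the genes at ranks 1 to 40 and 1 to 200 were described as the highest signals. The other arrays were 4 of Ctl tissue after efferent duct ligation (EDL), which ties off the ducts that carry sperm and fluid out of the testis, 3 of cKO sham tissue and 3 of cKO EDL tissue. The cKO mice carry a conditional knockout of Arl13b in basal cells positive for Krt5, and the sources used here do not give the strain or the alleles of the Ctl mice. All mice were 8 weeks old, and one epididymis of each mouse was ligated while the other was the sham side. Tissue was taken 48 h after surgery. The sham tissue is therefore the contralateral side of an operated mouse and not tissue of an untouched one. The dissection is called proximal epididymis in the labels, which do not give its borders.

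The epididymis is the duct in which sperm from the testis mature. Its proximal part, the initial segment and caput, is lined mainly by principal cells, which secrete proteins into the lumen, among them lipocalins that carry small hydrophobic molecules, beta-defensins and other small cationic proteins, protease inhibitors and antioxidant enzymes. Basal cells lie below the principal cells, narrow and clear cells acidify the lumen, and smooth muscle surrounds the duct.

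The values are array signals on the log2 scale, averaged over 4 arrays, and errors are SDs between arrays. A probe set differs from another in how strongly it binds its target, so the order of genes is an order of array signals and not strictly of transcript numbers. The number of arrays limits the precision. In such bulk tissue, fewer cells of a type and less RNA per cell cannot be told apart. The median of each Ctl sham array lay between 7.02 and 7.05, and the correlation across genes between any 2 of them lay between 0.992 and 0.995 over the 6 pairs, which describes all genes together and not independent replicates. As a background, 1459 olfactory and vomeronasal receptor genes, which this tissue is not known to use widely, had a median of 3.69, and their 95th percentile of 5.29 was taken as the background level. Of all genes, 15335 (69.9%) lay above it in all 4 arrays, 5402 below it in all 4, and 1192 above it in some.

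The highest signal was that of Clu, the secreted chaperone clusterin, with 13.83, 13.75, 13.84 and 13.78 in the 4 arrays. Clu ranked first in each array. Lcn2, a lipocalin that binds the iron carriers of bacteria, followed with 13.76, 13.69, 13.69 and 13.73 and ranked second in each. Gpx5, the secreted glutathione peroxidase of the epididymis, had 13.72, 13.68, 13.62 and 13.64. After them came Itm2b (13.63 ± 0.03), a membrane protein of the secretory pathway, then Lcn8 (13.57 ± 0.06), Slc38a5 (13.56 ± 0.05), a carrier of neutral amino acids, Cuzd1 (13.55 ± 0.06), Mfge8 (13.53 ± 0.01), a secreted protein that binds membranes, Calr (13.49 ± 0.06), a chaperone of the endoplasmic reticulum, and Mt1 (13.47 ± 0.05), a metallothionein. The genes at ranks 11 to 20 were ND4, Epp13, B2m, Defb20, Eef1a1, Ubb, ND1, Got2, Fth1 and Lcn10, with means of 13.45 ± 0.06 for ND4 and 13.37 ± 0.06 for Lcn10 at the ends. Ranks 21 to 40 included Hspa5, Ly6g5c, Lcn5, ND5, Dad1, Cd81, a predicted gene, Rplp1, Rnase10, Defb42, Actb, Teddm2, COX1, Plekha3, Rps23, Serinc3, Eef2, Gstm7 and Hspa8.

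**Figure D1:**
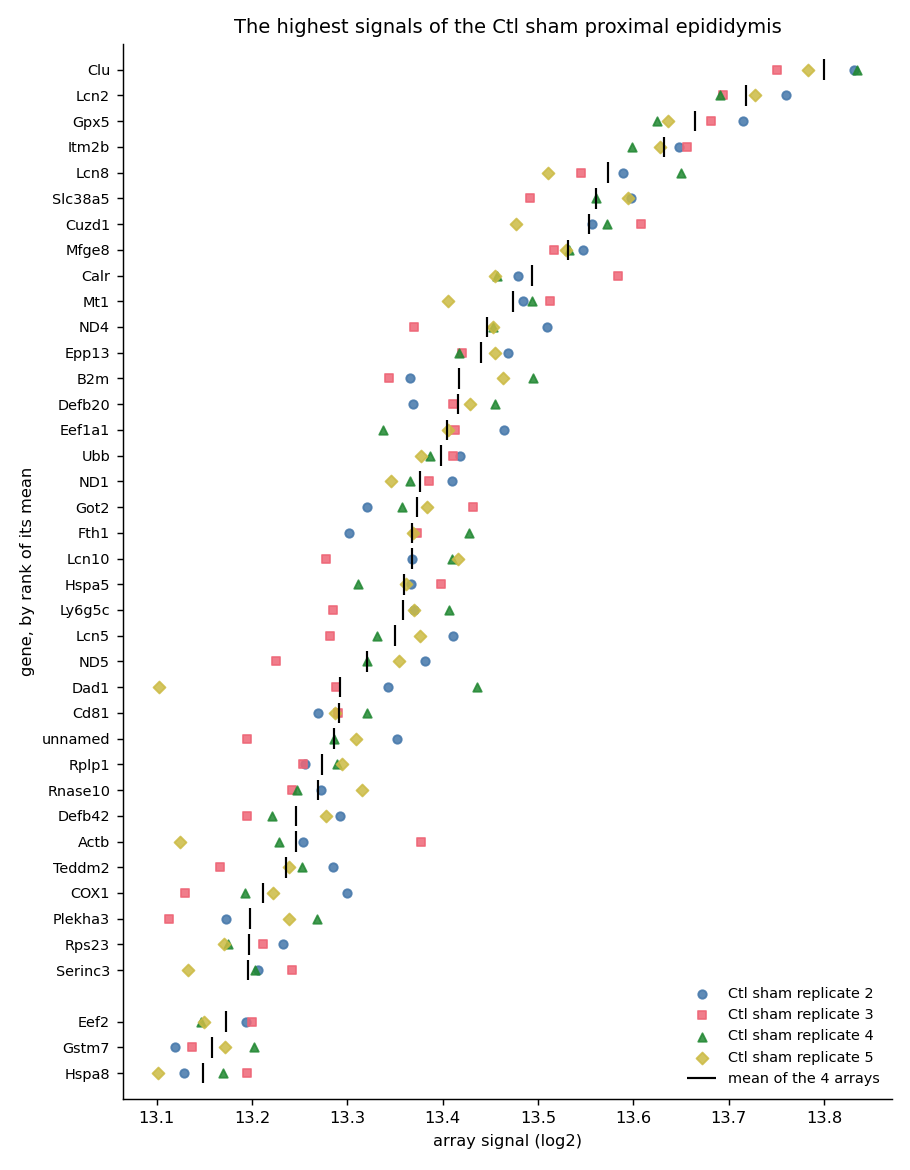
Array signal (log2, horizontal axis) of 39 of the 40 genes with the highest mean in the Ctl sham arrays, one row per gene by rank, with a coloured point for each of the 4 arrays and a black bar for their mean (a predicted gene is marked unnamed). The means span 0.65 log2, and Dad1 has the widest spread, with its lowest point in replicate 5.

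The signals at the top lay close together in these values, which end at 13.91. In a second table deposited by the authors, with log2 values up to 19.02, high genes lay farther apart. Teddm2 and Defb12 averaged 18.09 and 16.34 there in Ctl sham arrays, against 13.24 and 12.45 here. Whether high signals are compressed here was not tested. The 40 highest means spanned 0.65 log2, the 200 highest 1.47 and the 500 highest 2.22. The median SD among the 40 highest was 0.05, so neighbours in the order mostly did not differ beyond their spread. Hspa8 at rank 40 averaged 13.15 and Adam7 at rank 41 averaged 13.14. At the edge of the 200 highest, Cst3 at rank 200 averaged 12.33. Membership was steadier than order: 33 genes were among the 40 highest of all 4 arrays and 46 among those of any, and 186 were among the 200 highest of all 4 arrays and 218 among those of any. Dad1, a subunit of the enzyme that attaches sugar chains to new proteins, had the largest SD of the 40, with 13.34, 13.29, 13.44 and 13.10, and replicate 5 was its lowest. Mfge8 had the smallest, with 13.55, 13.52, 13.53 and 13.53.

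By function, the 200 highest signals included secreted proteins and machinery that every cell uses, while most belonged to none of the classes counted. Genes of 9 secreted families (beta-defensins, lipocalins, cystatins, Ly6, Pate and Lypd three-finger proteins, RNases, Spink and Spint inhibitors, Wfdc inhibitors, serpins and Crisp proteins) made up 39 of the 200, or 19.5% of them and 16.5% of the 237 such genes measured, whereas the 200 genes were 0.912% of all genes. Ribosomal proteins gave 23 of the 200 out of 86 measured, genes encoded by the mitochondrial genome 7 of 9, and chaperones and translocation proteins of the endoplasmic reticulum 7 of 36. Nuclear-encoded subunits of oxidative phosphorylation gave 3 of 86, and glutathione peroxidases and transferases, peroxiredoxins, superoxide dismutases and catalase gave 6 of 42. The other 115 belonged to none of these classes. Secreted families made up 23 of the 100 highest genes (23.0%) and 49 of the 500 highest (9.8%), and ribosomal proteins 9 and 53 of the same genes.

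The 250 bases before the start of Lcn8, Lcn5 and Lcn10, a run of neighbours that are all among the 23 highest signals, are given here with those of Rps23, a ribosomal protein gene of similar signal, to show how the promoters of the secreted and the ubiquitous genes differ in composition. The sequences are RefSeq's, of build GRCm38.p6 and on the plus strand: chr2:25652868-25653117 for Lcn8, chr2:25657702-25657951 for Lcn5, chr2:25682476-25682725 for Lcn10 and chr13:90922872-90923121 for Rps23. Capitals mark the dinucleotide CG, the TATA box core TATAAA, and AGAACA or its reverse complement TGTTCT, a half-site bound by steroid hormone receptors.
Lcn8: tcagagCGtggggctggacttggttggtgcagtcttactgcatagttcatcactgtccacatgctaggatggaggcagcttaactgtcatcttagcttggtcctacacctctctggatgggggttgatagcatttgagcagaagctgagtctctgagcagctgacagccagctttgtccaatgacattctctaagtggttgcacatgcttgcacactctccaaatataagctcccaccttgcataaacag
Lcn5: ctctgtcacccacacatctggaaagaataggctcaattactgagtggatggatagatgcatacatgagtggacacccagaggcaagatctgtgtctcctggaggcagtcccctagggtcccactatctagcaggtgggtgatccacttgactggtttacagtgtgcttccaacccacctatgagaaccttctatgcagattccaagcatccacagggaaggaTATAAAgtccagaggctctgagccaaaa
Lcn10: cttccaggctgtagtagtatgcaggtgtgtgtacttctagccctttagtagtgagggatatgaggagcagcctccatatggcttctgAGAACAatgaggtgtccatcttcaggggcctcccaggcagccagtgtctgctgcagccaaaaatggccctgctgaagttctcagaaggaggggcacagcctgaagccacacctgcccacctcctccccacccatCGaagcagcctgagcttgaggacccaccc
Rps23: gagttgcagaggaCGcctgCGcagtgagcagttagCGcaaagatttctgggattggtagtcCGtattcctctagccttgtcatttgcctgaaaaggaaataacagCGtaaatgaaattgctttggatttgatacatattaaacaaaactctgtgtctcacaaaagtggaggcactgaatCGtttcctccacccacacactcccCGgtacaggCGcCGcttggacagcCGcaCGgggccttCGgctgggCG
The Rps23 window holds 13 CG dinucleotides, those of Lcn8 and Lcn10 hold 1 each and that of Lcn5 holds 0. TATAAA stands 28 bases before the start of Lcn5, and AGAACA 163 bases before that of Lcn10. The GC content was 49.2% for Lcn8, 49.6% for Lcn5, 56.8% for Lcn10 and 50.8% for Rps23.

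Over the windows that RefSeq gave, 1 per gene, secreted and ribosomal genes differed in the same way in CG dinucleotides. The 29 windows of secreted family genes among the 200 highest signals held 3.21 CG dinucleotides on average at a GC content of 49.2%, and the 53 windows of secreted family genes below background 2.25 at 46.5%. The 64 windows of ribosomal protein genes held 16.5 at 56.6%, and all 16758 windows 12.3 at 55.5%. AGAACA or TGTTCT occurred in 12 of the 29 windows (41.4%), in 26.4% of those of secreted family genes below background, in 10.9% of those of ribosomal protein genes and in 13.7% of all. TATAAA lay 40 to 16 bases before the start in 10.3%, 11.3%, 1.56% and 2.83% of the same 4 sets. The motifs were chosen after the shares were seen, and base composition differs between the sets, so a match is a description of these letters only.

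Among secreted families the lipocalins stood highest. They were counted by the symbol Lcn, so genes under other symbols, such as Ptgds beside Lcn12, did not enter. Of 10 measured, 7 lay above background and 6 among the 200 highest: Lcn2, Lcn8, Lcn10 and Lcn5 above, Lcn12 at 12.94, 12.82, 12.90 and 12.90, and Lcn9 at 12.98, 12.78, 12.81 and 12.96. Lcn6 averaged 11.38 ± 0.07, and Lcn3, Lcn11 and Lcn4 lay below background at 4.57, 4.40 and 3.74. The Lcn genes thus fell into a high and a low set with only Lcn6 between them. The beta-defensins had more members among the 200 highest than any other secreted family, with 12 of 43 there and 39 above background. Defb20 averaged 13.42 ± 0.04, Defb42 13.25 ± 0.05 and Defb25 13.06 ± 0.06, whereas the family's median was 9.85 and Defb7 averaged 3.95.

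**Figure D2:**
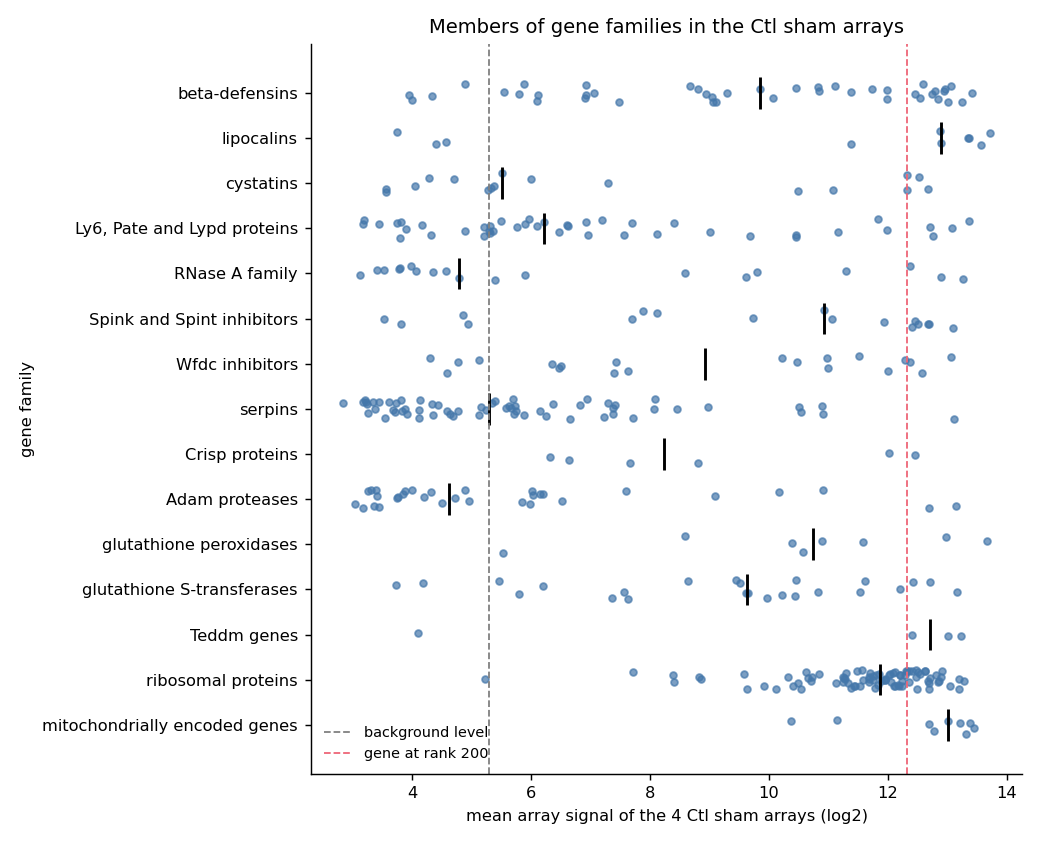
Mean array signal over the 4 Ctl sham arrays (log2, horizontal axis) of each member (points) of 15 gene families (rows), with the family median as a black bar, the background level of 5.29 as a dashed grey line and the gene at rank 200 as a dashed red line. The lipocalin, Teddm and mitochondrially encoded medians lie right of the red line, while most serpins and RNases lie near or below background.

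In the other secreted families a few members stood far above the family's median, which lay between 4.78 for the RNases and 10.92 for the Spink and Spint inhibitors. Of 19 RNase A family genes, 9 lay above background, led by Rnase10 (13.27 ± 0.03), which mouse sperm need to pass into the oviduct, Rnase9 (12.89 ± 0.06) and Rnase13 (12.37 ± 0.14). Of 43 three-finger proteins, small disulphide-rich proteins of the Ly6 fold, 30 lay above background and Ly6g5c (13.36 ± 0.05), Ly6g5b (13.07 ± 0.08) and Pate7 (12.75 ± 0.09) led. Of 62 serpins, inhibitors of serine proteases, 31 lay above background, but Serpina1f (13.12 ± 0.12) was the only one among the 500 highest, and Serpina3n (10.90 ± 0.45) and Serpinf2 (10.90 ± 0.05) came next. Of 17 Spink and Spint inhibitors, 6 were among the 200 highest, with Spink8 (13.10 ± 0.13), Spink12 (12.69 ± 0.06) and Spink11 (12.68 ± 0.08) at the top. Of 20 Wfdc inhibitors 3 were, namely Wfdc10 (13.06 ± 0.06), Wfdc13 (12.57 ± 0.09) and Wfdc8 (12.38 ± 0.09). Of 17 cystatins, inhibitors of cysteine proteases, 3 were: Cstdc2 (12.67 ± 0.07), Cst11 (12.52 ± 0.11) and Cst3 (12.33 ± 0.02). All 6 Crisp family genes lay above background, with Crisp1 (12.46 ± 0.07) and Crisp4 (12.03 ± 0.09), sperm-coating proteins, far above Crispld2 (8.81 ± 0.27).

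Surface proteins and enzymes showed the same unevenness. Of 4 Teddm genes, Teddm2 (13.28, 13.17, 13.25 and 13.24), Teddm1a (12.98, 12.86, 13.08 and 13.10) and Teddm1b (12.41, 12.23, 12.47 and 12.53) were among the 200 highest, and Teddm3 averaged 4.09 ± 0.15. Replicate 3 was the lowest of the 4 arrays for each of the 3 high members. Of 32 Adam genes 19 lay below background, while Adam7 (13.14 ± 0.04) and Adam28 (12.69 ± 0.12) were high. Among 8 glutathione peroxidases Gpx5 was followed by Gpx3 (12.98 ± 0.09) and Gpx1 (11.59 ± 0.10). Among 24 glutathione S-transferases Gstm7 (13.16 ± 0.04), Gstm1 (12.71 ± 0.06) and Gstm2 (12.42 ± 0.04) were highest, all of the mu class. The proton pump subunit Atp6v0c averaged 12.88 ± 0.07, the next subunit Atp6v0d2 11.17 ± 0.08, and Aqp9, a channel for water and small solutes, was the highest aquaporin at 11.05 ± 0.08.

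Of 9 genes of iron and copper handling, 4 were among the 200 highest. Besides Lcn2 and Mt1, Fth1, the ferritin heavy chain, had 13.30, 13.37, 13.43 and 13.37, and the metallothionein Mt2 had 12.97, 13.31, 12.94 and 12.80. Mt2 had the largest SD of the 200 highest genes (0.21), with replicate 3 above the other arrays. The remaining 5 genes ranged down to Tfrc, the transferrin receptor, at 7.89 and Ltf, which encodes lactoferrin, at 6.61. Of the ribosomal proteins, Rplp1 (13.27 ± 0.02) and Rps23 (13.20 ± 0.03) were highest, and 85 of 86 lay above background. Of genes that make and fold proteins in the endoplasmic reticulum all 36 lay above background, led by Calr, Hspa5 (13.36 ± 0.04) and Dad1. Srd5a2, which converts testosterone to dihydrotestosterone, averaged 12.62 ± 0.05. Etv5 (12.03 ± 0.10), a factor induced by growth factor signalling, Pax8 (11.99 ± 0.05) and Ehf (10.80 ± 0.08) were the highest of 15 epithelial transcription factors, and the highest of 38 Hox genes were Hoxb8 (11.20 ± 0.04), Hoxb7 (11.12 ± 0.06) and Hoxb6 (10.99 ± 0.18).

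Other families of the epithelium held wide ranges below the top. Of 374 solute carriers 293 lay above background, and Slc38a5, Slc3a2 (12.60 ± 0.07) and Slc7a5 (12.52 ± 0.08), the last 2 being the chains of one amino acid exchanger, were the 3 among the 200 highest. None of 48 keratins and 23 claudins, which build the filaments and tight junctions of epithelia, was among the 500 highest. The keratins were led by Krt18 (11.31 ± 0.06), Krt8 (10.81 ± 0.09) and Krt7 (10.58 ± 0.12), and the claudins by Cldn3 (11.55 ± 0.05), Cldn4 (11.46 ± 0.04) and Cldn2 (10.78 ± 0.15). Of the 86 nuclear-encoded subunits of oxidative phosphorylation 84 lay above background, with Cox7c (12.73 ± 0.07), Cox6c (12.58 ± 0.06) and Cox6a1 (12.44 ± 0.09), all of cytochrome c oxidase, highest. ND6, the lowest of the 9 mitochondrially encoded genes, averaged 10.37 ± 0.19. Proteasome subunits had a family median of 10.05 and 0 of 40 among the 500 highest.

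Several of the highest signals come from genes that lie next to each other. Of 188 genes of the 200 highest that could be placed in the gene order of the RefSeq table, 44 (23.4%) had another of the 200 within 3 measured genes, against 22 of 197 (11.2%) among the genes at the next 200 ranks. They formed 18 runs, of which 6 had 3 or more genes. These were Teddm2, Teddm1b, Teddm1a and Glul on chromosome 1, Lcn8, Lcn5 and Lcn10 on chromosome 2, Gstm7, Gstm2 and Gstm1 on chromosome 3, Defb39, Defb12 and Spag11b on chromosome 8, Defb48, Defb47, Defb30 and Defb42 on chromosome 14, and Spink5, Spink12 and Spink11 on chromosome 18. Members of such families resemble each other in sequence, and how much signal their probe sets share was not measured. In several runs the members differed in the comparison with EDL tissue given further on.

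The label of proximal epididymis was read against marker lists, which were chosen with earlier results of these data known and are measured by the same signals as the ranking, so that their levels are a description. All 13 caput principal cell genes lay above background and 11 were among the 200 highest, with a list median of 13.02. All 11 initial segment genes lay above background with a median of 12.03, and Ros1, the receptor whose signal the initial segment needs, had 11.49, 11.23, 11.38 and 11.33. The basal cell genes Trp63, Krt5 and Krt14 averaged 10.59 ± 0.17, 10.06 ± 0.09 and 9.02 ± 0.37, and the clear and narrow cell genes Foxi1 and Car2 averaged 10.33 ± 0.12 and 9.09 ± 0.12. Markers of neighbouring organs lay mostly near or below background. Of 6 seminal vesicle genes 4 lay below it, and the highest, Pate4, averaged 5.50. Of the 3 Sertoli cell genes Dmrt1 averaged 5.87, Amh 5.48 and Fshr 4.66, and of the 4 Leydig cell genes 2 lay below background but Cyp17a1 averaged 8.66.

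Marker lists of muscle, connective tissue, vessels and blood cells had medians below those of the caput and initial segment lists. Among 11 smooth muscle genes Actg2, the enteric gamma actin, stood at 12.95, 12.95, 13.01 and 13.10, far above the next, Acta2, at 10.79, 12.17, 11.33 and 11.17. The arrays thus differed clearly for Acta2, highest in replicate 3 and lowest in replicate 2, but not in the same order for Actg2. Fibroblast genes had a list median of 9.24, macrophage genes 7.87 and endothelial genes 7.19, with Dcn (11.38 ± 0.05), Cd68 (9.84 ± 0.21) and Eng (8.29 ± 0.31) highest. Of 6 B cell genes 5 lay below background, as did 4 of 7 neutrophil genes (Ly6g at 3.79). Of 8 T and NK cell genes 5 lay above it and 3 below, among the latter Cd3d and Cd3g (Cd3g at 4.99). Sperm transcripts were present, with Odf1 at 9.68 ± 0.28, Prm2 at 9.65 ± 0.20 and Prm1 at 9.61, 9.06, 8.35 and 8.28. Erythrocyte haemoglobin Hbb-bs averaged 11.40 ± 0.22.

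**Figure D3:**
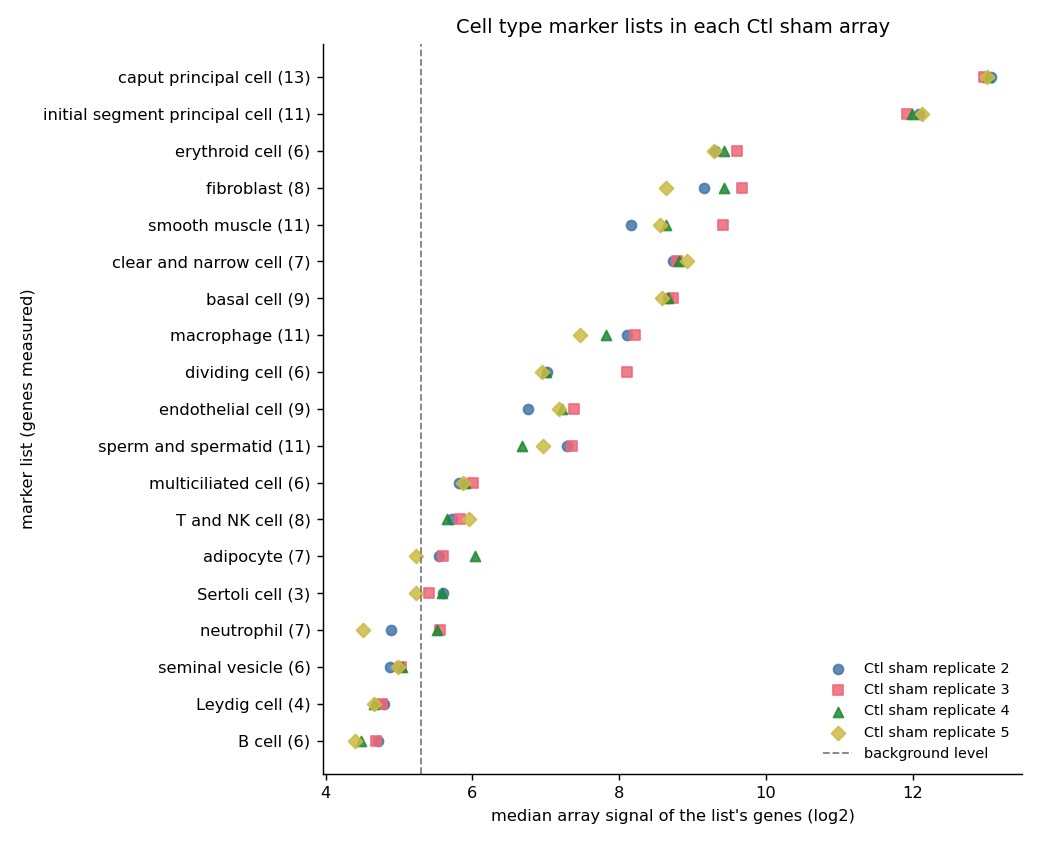
Median array signal (log2, horizontal axis) of the genes in each of 19 cell type marker lists (rows, number of genes measured in brackets) in the 4 Ctl sham arrays (coloured points), with the background level of 5.29 as a dashed grey line. The caput list lies near 13 and the initial segment list near 12 with the arrays close together. The smooth muscle, dividing cell, neutrophil and fibroblast lists spread most, the neutrophil list around the background level.

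Above background, the spread between arrays became smaller with signal, and whether compression of high signals has a part in this was not tested. The median SD over all genes was 0.13. It was 0.16 for the 5968 genes below background and 0.16 for the 4921 genes between the background level and 7, 0.12 for the 6237 genes between 7 and 9, 0.08 between 9 and 11, and 0.06 for the 297 genes above 12. Of the 15961 genes whose mean lay above background, 216 (1.35%) had an SD over 0.5, and of these 130 were highest in replicate 3 and 107 lowest in replicate 5. Without replicate 3 there were 122 such genes.

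**Figure D4:**
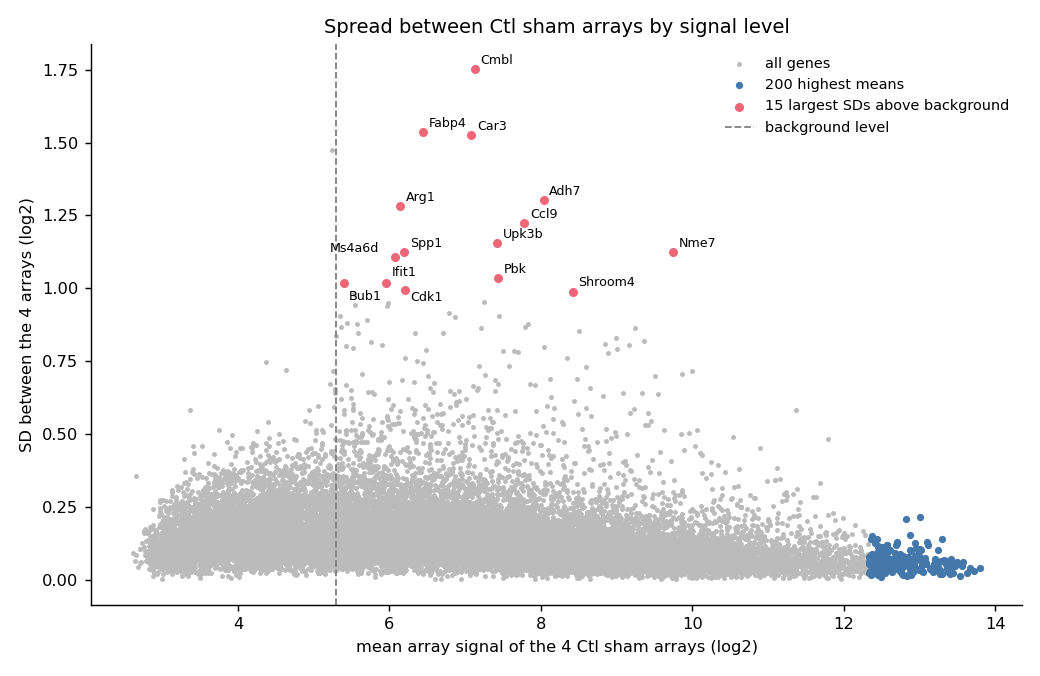
SD between the 4 Ctl sham arrays (log2, vertical axis) against mean signal (log2, horizontal axis) for all genes (grey), the 200 highest means (blue) and the 15 genes above background with the largest SD (red, named), with the background level of 5.29 as a dashed line. The largest SDs lie between signals of 5 and 10, up to 1.75 for Cmbl, and the blue points reach 0.21 at most.

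The 15 most variable genes with a mean above background included some, such as Ifit1 and Bub1, above it in only 2 of the 4 arrays. Many of the 15 could be grouped by the array in which they were highest or lowest, though not all stood apart in a single array. Cdk1, Bub1 and Pbk, genes of dividing cells, were highest in replicate 3: Cdk1 had 5.49, 7.68, 5.76 and 5.91 and Pbk 6.81, 8.97, 6.79 and 7.17. The list of 6 dividing cell genes was highest in replicate 3 for all 6, with a list median of 8.10 there and between 6.95 and 7.02 in the other arrays. In the same array 9 of 11 smooth muscle genes (list medians 8.16, 9.42, 8.64 and 8.56) and 71 of 95 histone genes were also highest. The share over all genes was not counted, and 290 of the 1459 background receptor genes were highest there. Of the smooth muscle genes 10 were lowest in replicate 2. Replicate 3 was lowest for 8 of 13 caput and 7 of 11 initial segment genes, and highest for 1 and 2 of them. The part of these lists in the other differences was not tested.

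Another set was lowest in replicate 5. The chemokine gene Ccl9 had 8.36, 8.58, 8.23 and 5.96, Spp1, which encodes osteopontin, 6.65, 6.91, 6.71 and 4.52, and Arg1, an arginase of myeloid cells, 7.85, 6.02, 5.97 and 4.75. Fabp4, the fatty acid carrier of adipocytes, had 6.52, 7.48, 7.53 and 4.25, and Car3 had 7.12, 8.45, 7.81 and 4.94. Ms4a6d and Ifit1 were also lowest there, but Ifit1 was nearly as low in replicate 2 (5.21, against 4.97), and Arg1 also stood high in replicate 2. Of these genes only Ccl9 stayed above the background level of 5.29 in replicate 5, so the sizes of the other differences are uncertain. In replicate 5 all 8 fibroblast genes, 9 of 11 macrophage genes (list medians 8.11, 8.22, 7.81 and 7.46) and 5 of 7 adipocyte genes were lowest. The share over all genes was not counted, and 354 of the 1459 background receptor genes were lowest there. Whether less of these cells was dissected was not tested.

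For 4 of the 15 genes, both the range over the Ctl EDL arrays and that over the Ctl sham arrays exceeded the largest EDL to sham distance within a number. These 4 were picked for that after their values were seen. For others only the Ctl sham range did, as for Fabp4 (3.28, against a distance of 1.69 and a Ctl EDL range of 1.52). Nme7, a nucleoside diphosphate kinase family gene, had 8.76, 10.64, 9.03 and 10.98 in Ctl EDL arrays 2 to 5, against 8.71, 10.45, 8.88 and 10.96 in the Ctl sham arrays. For Nme7 the EDL and sham arrays of a number differed by 0.19 at most, while the arrays of a surgery ranged over 2.22 in EDL and 2.24 in sham. Cmbl, a hydrolase gene, had 6.04, 5.87, 9.26 and 9.30 in Ctl EDL and 5.79, 5.45, 8.74 and 8.54 in Ctl sham arrays. Adh7, an alcohol and retinol dehydrogenase, had 6.97, 8.73, 8.60 and 9.23 in Ctl EDL and 6.11, 8.45, 8.69 and 8.91 in Ctl sham arrays, and Shroom4, a regulator of the actin cytoskeleton, had 9.11, 7.52, 9.26 and 8.68 in Ctl EDL and 9.13, 7.23, 9.33 and 8.01 in Ctl sham arrays. The cKO arrays split likewise, with Nme7 at 8.93, 8.98 and 10.99 in cKO EDL and 8.98, 8.88 and 10.85 in cKO sham arrays 2 to 4. The largest distance within a number was 0.77 for Cmbl, 0.87 for Adh7 and 0.67 for Shroom4. Agreement of the 2 sides by number was no more frequent among the 100 most variable genes than among all genes above background by mean. The same number was highest on both sides for 26 of the 100 (26.0%), against 33.6% of the genes above background. All 4 numbers kept their order for 7.0% of the 100, against 7.05%. Among the 200 highest genes the shares were 41.5% and 10.5%. Of the 15 most variable genes, which include the 4 picked, the same number was highest for 8 and the order was kept for 3. How often such agreement arises by chance was not tested. The labels do not state that a number marks a mouse. Upk3b, a uroplakin of mesothelial cells, belonged to none of these sets, with 8.98, 6.69, 6.42 and 7.59 in the Ctl sham arrays.

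To see how the baseline profile reads on the ligated side, Ctl EDL was compared with Ctl sham in a limma model of all 14 arrays and 21929 genes (n = 4 and 4, Benjamini-Hochberg adjusted p under 0.05). The model did not pair the sides of a mouse, and counts with replicate number as a block are given further on. Of the 200 highest genes 7 rose and 30 fell, where 7.88% of all genes passed, 3.32% as rises and 4.57% as falls. None of the 7 rises and 20 of the 30 falls were at least 2-fold. The ranking and the difference share the Ctl sham arrays, so that these counts describe the profile and support nothing further. Of the 39 secreted family genes among them 3 rose and 12 fell. None of the 23 ribosomal, 7 mitochondrially encoded, 3 oxidative phosphorylation and 7 endoplasmic reticulum genes passed, with median differences of 0.11, 0.11, 0.14 and -0.09, beside 0.04 for the 200 genes and 0.01 for all genes. Clu, Lcn2 and Gpx5 kept ranks 1 to 3 in the Ctl EDL arrays, and 171 of the 200 genes remained among the 200 highest there.

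The falls took some of the highest genes to the middle of the ranking. Teddm2 had 6.54, 6.87, 6.44 and 6.69 in Ctl EDL arrays, a difference of -6.60 ± 0.09 from its Ctl sham values (SE, adjusted p = 1.58e-15), and Rnase10 had 7.64, 7.73, 8.11 and 7.94, against 13.27, 13.24, 13.25 and 13.32 in Ctl sham arrays (-5.42 ± 0.14, adjusted p = 4.85e-12). Both fell without overlap between the groups, to ranks 12232 and 8528. The size of these differences depends on the table, and with the second deposited table, whose log2 values reach 19.02, Teddm2 differed by -10.78 and Rnase10 by -9.71. Over the named genes that passed, that table gave differences 1.51 to 1.98 times as large on the log2 scale. Defb48 (-5.36 ± 0.15), Teddm1a (-5.19 ± 0.23), Lcn9 (-4.43 ± 0.12) and Adam28 (-3.60 ± 0.13) were the other largest falls, a predicted gene aside. Within the runs of neighbouring genes, Defb42 differed by -0.01, Defb30 by 0.06 and Teddm1b by -0.06, which did not pass, and Defb47 fell (-1.36). Of the 3 lipocalin genes whose promoters are printed, Lcn8 had 12.58, 12.48, 12.51 and 12.52 in Ctl EDL arrays, against 13.59, 13.55, 13.65 and 13.51 in Ctl sham arrays (-1.05 ± 0.07). Lcn10 had 12.23, 11.91, 12.05 and 12.15 in Ctl EDL arrays, against 13.37, 13.28, 13.41 and 13.42 in Ctl sham arrays (-1.28 ± 0.08). Both fell without overlap, while Lcn5, which lies between them, had 13.63, 13.47, 13.35 and 13.48 in Ctl EDL arrays, against 13.41, 13.28, 13.33 and 13.38 in Ctl sham arrays, and did not pass (0.13, adjusted p = 0.354). Among the 40 highest, Mfge8 (-1.13 ± 0.06), Ly6g5c (-1.24 ± 0.09) and Plekha3 (-0.88 ± 0.07) fell too. Actg2 fell as well, with 8.94, 9.45, 10.55 and 9.13 in Ctl EDL arrays (-3.48, adjusted p = 1.87e-05), and Acta2, the other smooth muscle actin, differed by 0.31 and did not pass (adjusted p = 0.604).

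Marker lists of other cells, chosen with earlier results of these data known, moved in the same comparison, where 3.32% of all genes rose and 4.57% fell. All 11 sperm and spermatid genes fell (median difference -2.31), 10 of 11 macrophage genes rose (median 0.98), and of the initial segment genes, some of which are among the falls above, 8 of 11 fell and 0 rose (median -2.63). None of the 8 fibroblast genes passed, at a median of 0.63, and of the smooth muscle genes 1 of 11, Actg2, did. The part of these cells in the differences of the 200 highest genes was not tested.

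The rises were small. Defb12 had 12.77, 12.71, 12.87 and 12.86 in Ctl EDL arrays, against 12.40, 12.59, 12.43 and 12.37 in Ctl sham arrays (0.35 ± 0.07, limma adjusted p = 0.00714). Gstm1 (0.33 ± 0.07), Defb35 (0.33 ± 0.07), and Pabpc1 (0.29 ± 0.06), which binds poly(A) tails, rose likewise. Crisp1 (0.31 ± 0.09, adjusted p = 0.0491) and Gstm7 (0.22 ± 0.06, adjusted p = 0.0343) passed narrowly, and both missed the threshold with arrays centred on their medians (adjusted p = 0.0899 for Crisp1 and 0.101 for Gstm7). Crisp1 missed it too without any one of the 8 Ctl arrays (adjusted p between 0.0545 and 0.14), and Gstm7 without any one of them but Ctl EDL replicate 3 (between 0.0545 and 0.0991).

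**Figure D5:**
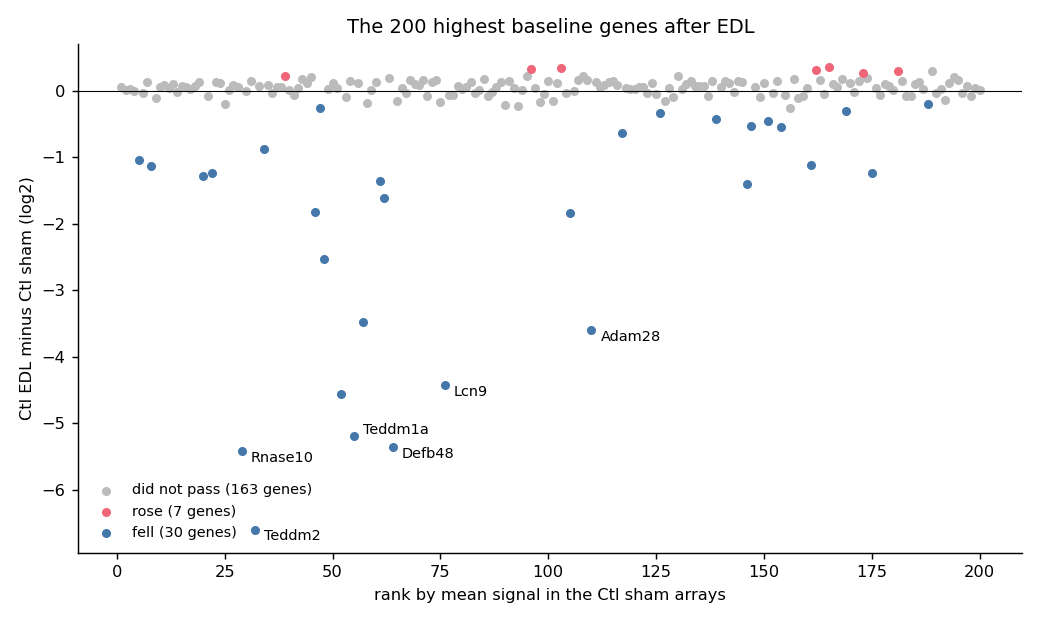
Ctl EDL minus Ctl sham difference (log2, vertical axis) of the 200 genes with the highest Ctl sham means, by rank (horizontal axis), in grey where the limma test was not passed, red for the 7 rises and blue for the 30 falls, with the 6 largest named falls labelled. Most genes lie near 0, and Teddm2 reaches -6.60.

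The profile was also set against cKO sham tissue (n = 3 and 4, same model). The targeted gene Arl13b had 7.24, 7.20 and 7.15 in cKO sham arrays, against 6.87 to 7.46 in the 4 Ctl sham arrays, a difference of 0.10 ± 0.14 (95% interval -0.19 to 0.39, limma adjusted p = 0.999). The groups overlap. The knockout is of basal cells alone, and where the probes lie in the gene is not known here, so that this comparison does not check the labels. Of all genes 0 (0.0%) passed in limma, with 800 at an unadjusted p under 0.05, and of the 200 highest genes 0 passed, with 2 at an unadjusted p under 0.05. The 95% interval of a difference among the 200 reached 0.15 to either side for the gene with the median width. Among the 200 the largest difference was that of Wfdc13 at -0.33 ± 0.15, with 12.08, 12.67 and 11.99 in cKO sham arrays, against 12.47, 12.55, 12.70 and 12.56 in Ctl sham arrays. Some genes of lower rank differed by far more, and none of them passed. Pate3 had 5.80, 5.49 and 5.64 in cKO sham arrays, against 9.09, 7.87, 9.43 and 9.64 in Ctl sham arrays (-3.36 ± 0.90, limma adjusted p = 0.999). Pate1 differed by -3.06 ± 0.93, and both were picked after their values were seen. Pate3 also ranged from 5.53 to 10.61 in Ctl EDL arrays, and the cause was not tested. Of the 40 and 200 highest genes of Ctl sham tissue, 39 and 196 were also among the 40 and 200 highest of cKO sham tissue. Krt5 differed by -0.20 ± 0.10, Trp63 by 0.03 ± 0.11 and Ros1 by 0.18 ± 0.12, none past the threshold. After EDL in Ctl mice, Krt5 rose by 0.44 ± 0.09 and Ros1 fell by 0.42 on the log2 scale (adjusted p = 0.00956 and 0.034). The call of Ros1 was lost without Ctl EDL replicate 3, 4 or 5 and without Ctl sham replicate 2, 4 or 5 (adjusted p between 0.0526 and 0.102).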

How the data were processed

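RNA (100 ng per array) was hybridized to single-colour Clariom S mouse arrays, per the labels' protocols and file headers. The deposited table of the authors holds log2 signals of 22206 probe sets, between 2.33 and 13.91. The submitters' processing notes name Affymetrix Expression Console, RMA and Partek 7.0, and their roles and the annotation build are not given in the sources used here. A second table deposited by the authors holds log2 values up to 19.02 and served as an alternative. The authors' deposited ratio of each comparison equalled that of the log2 table within 0.001 for 100.0% of probe sets, and was used for names only. The 14 columns of array values in that file were not used.

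Probe sets were named by accession through RefSeq (20456 matched, 916 symbols updated). Of 180 symbols with several probe sets the one with the highest mean over 14 arrays was kept, which left 21929 genes, with no filter. The named genes were the 40 highest, the 3 highest members of a family, the 15 largest SDs above background, the 6 largest rises and falls past the threshold in the 200 highest, Arl13b, Krt5, Trp63, Ros1 and cell type markers. Pate1 and Pate3 were added after their values were seen. Predicted genes entered counts without being named, and some genes under the rule are not reported here. Members and lists were chosen with earlier results of these data known. Differences came from a limma model with 4 group means, two-sided (10 residual and 4.16 prior degrees of freedom). Simulated data had 21929 genes with independent normal noise of each gene's residual SD, and 100 genes were moved by each amount together. Changes of 1 on the log2 scale were recovered for 99% of genes for Ctl EDL against Ctl sham and 95% for cKO sham against Ctl sham. Changes of 0.5 were recovered for 59% and 45%. The adjusted threshold is easier to pass where many genes move, so these shares do not say what the cKO comparison could have missed. Replicates within a group are taken to be separate mice, as the design text implies, and otherwise p-values measure only the spread between these samples. The ligated and sham sides of a mouse entered the main model as independent samples. A single scan date gave no batches to compare. Alternatives were the series matrix table, centring, a second quantile normalization, other variances, a filter, blocks and leaving out each array. Tools were limma 3.58.1 in R 4.3.3 for the model, pandas 2.3.3 and numpy 2.4.6 in Python 3.11.15 for the tables, and matplotlib 3.10.9.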

Additional observations from a re-analysis of the deposited data

Results flagged for a closer look

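In each group of 4 Ctl sham arrays, the gap of the farthest array to its nearest neighbour was divided by the whole range (Dixon's ratio). Of 87 genes and list medians so examined 5 passed the 95% critical value, and chance passes about 1 in 20. Adh7 (ratio 0.834) was low in replicate 2, at 6.11 against 8.45 to 8.91 in the other arrays. Ccl9 (0.866) was low in replicate 5, at 5.96 against 8.23 to 8.58, and so was Spp1 (0.893), at 4.52 against 6.65 to 6.91. Trp63 (0.85) was low in replicate 3, at 10.33 against 10.65 to 10.70. The median of the dividing cell list (0.944) was high in replicate 3, at 8.10 against 6.95 to 7.02.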

How the results depend on the processing

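Under the alternatives tried, 86 to 100 of the 100 highest genes stayed (86 in the second deposited table, 98 to 99 with an array left out) among the 100 highest, the count above background in all 4 arrays was 12953 to 16662, the median SD 0.11 to 0.19, and secreted family genes among the 200 highest 38 to 41. For the last of these and for the next count the alternatives were added after seeing the data. The count of genes with an SD over 0.5 was 726 in the second table, and 122 to 311 when an array was left out, lowest without Ctl sham replicate 3. For Ctl EDL against Ctl sham, rises numbered 412 to 774 and falls 757 to 913 when an array was left out, with 412 rises without Ctl sham replicate 5, 436 without Ctl EDL replicate 5 and 481 without Ctl sham replicate 2. Centring gave 567 rises and 1163 falls, against 727 and 1002. Rises among the 200 highest were 4 or 5 with an array left out (4 without Ctl sham replicate 5) and 21 with trended and robust variances, and 2 among the 100 highest. The cause was not tested. Of 616 results for single genes under an alternative, 28 lost their call and 1 gained one, and 0 reversed. The 616 stem from 44 single-gene results over both comparisons. Only the 20 of these that passed, all for Ctl EDL against Ctl sham, had a call to lose. No count for cKO sham against Ctl sham left 0.

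Same-numbered arrays deviated together with correlations of -0.0016 to 0.198, and for 4 of 7 the own number was the best partner. These values do not settle whether a number marks a mouse. Each mouse gave a ligated and a sham side, but the labels do not say which arrays share a mouse. The main model therefore did not pair arrays, and blocks served as alternatives. With number as a fixed replicate block 1629 genes passed for Ctl EDL against Ctl sham (1729 without), with a random block 2090, and with a block 0 for cKO sham against Ctl sham. Crisp1 and Gstm7 lost their calls under the fixed block. Only 4 arrays limit the spread, and signals below 5.29 cannot be told apart from background.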

Other observations

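Some genes stood apart from the rest of their list in the Ctl sham arrays. Cyp17a1, a steroid-producing enzyme, had 8.88, 7.87, 8.71 and 9.18, while the other Leydig cell genes Star, Lhcgr and Cyp11a1 averaged 5.41, 4.03 and 3.40. Ccno and Foxj1, genes of multiciliated cells, averaged 10.23 ± 0.06 and 8.05 ± 0.14, while Deup1 and Tekt1 lay below background at 5.07 and 4.92. Zap70, a kinase of T and NK cells, averaged 7.60 ± 0.32, whereas Cd3e and Cd3g averaged 5.29 and 4.99. Rhox7a averaged 10.70 ± 0.11, and the next of 32 Rhox genes, Rhox9, averaged 7.53 ± 0.08. The histone genes H2ac18 and H2ac19, near-identical copies, had the same 4 values (12.43, 12.72, 12.55 and 12.55) and cannot be told apart here.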
